A study of Mus musculus with 6 samples.

Results

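The 10 genes described here encode the hepatic insulin receptor, its adaptors, the kinases that carry its signal and the transcription factors it controls. They were taken by symbol (Insr, Irs1, Irs2, Pik3r1, Pik3ca, Akt1, Akt2, Foxo1, Foxo3 and Trib1) from a table of 28450 genes, and all 10 were found and had a mean of at least 1 FPKM. The values come from the livers of 3 Acsm3 knockout mice and 3 wild-type control mice, all male, 12 weeks old and fed a normal diet. Each liver gave 1 poly(A)-selected library, and the values are FPKM, fragments per kilobase of exon, scaled to the size of the library. Which part of Acsm3 was disrupted, in which cells and on which strain, is not stated in the sources used here.

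Insulin binds its receptor on the hepatocyte, which phosphorylates the adaptors IRS1 and IRS2. These recruit phosphatidylinositol 3-kinase, whose lipid product brings AKT to the membrane, where it is activated. AKT phosphorylates FOXO1 and FOXO3, which then leave the nucleus bound to 14-3-3 proteins, so that FOXO-driven genes of glucose output are turned down. Most of these steps act on protein, and only transcript levels were measured here.

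In the knockout livers, 1 of these 10 genes passed the test, against 16.5% of all tested genes. Pik3ca, the catalytic p110-alpha subunit of phosphatidylinositol 3-kinase, was 1.29-fold higher in group mean. The receptor gene Insr and the kinase gene Akt2 did not pass and had the narrowest intervals together with Pik3ca. Irs2 had a knockout mean of 0.766 times the control mean and did not pass. Foxo1 and Foxo3 did not pass either. Of 20 tested FOXO target genes 1 rose (Sesn3) and 2 fell (G6pc and Pck1), or 15.0% with both directions together. By direction, 13.9% of all tested genes rose and 2.61% fell.

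The promoter sequences of the adaptor genes and of a pair of FOXO target genes are shown because these windows hold a match to a FOXO-type motif. The windows of the FOXO targets Pck1 and Sesn3 were read as well and held no match, so they are not printed. Windows of 250 bases before to 50 after the RefSeq start (GRCm38.p6) were read for 8 of the 10 genes, in 13 windows, and Insr and Trib1 were not among them. They were searched on both strands for CAAAACA, the core of the insulin response element to which FOXO factors bind, and for GTAAACA, the core forkhead motif. Capitals mark matches, and a match on the opposite strand reads TGTTTTG. No matches overlapped in the windows printed.
Irs1: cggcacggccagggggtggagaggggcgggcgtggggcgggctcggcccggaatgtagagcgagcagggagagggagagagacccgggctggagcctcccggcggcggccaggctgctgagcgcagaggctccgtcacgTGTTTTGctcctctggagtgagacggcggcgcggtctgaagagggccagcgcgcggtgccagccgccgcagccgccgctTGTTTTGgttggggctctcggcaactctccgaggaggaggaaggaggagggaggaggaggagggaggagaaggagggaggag
Irs2: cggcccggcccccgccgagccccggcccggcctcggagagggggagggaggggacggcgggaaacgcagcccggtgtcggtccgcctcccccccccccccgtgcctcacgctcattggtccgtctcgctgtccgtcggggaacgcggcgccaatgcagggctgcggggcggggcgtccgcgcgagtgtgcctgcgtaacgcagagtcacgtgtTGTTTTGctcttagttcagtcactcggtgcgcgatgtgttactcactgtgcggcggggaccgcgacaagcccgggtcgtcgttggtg
G6pc: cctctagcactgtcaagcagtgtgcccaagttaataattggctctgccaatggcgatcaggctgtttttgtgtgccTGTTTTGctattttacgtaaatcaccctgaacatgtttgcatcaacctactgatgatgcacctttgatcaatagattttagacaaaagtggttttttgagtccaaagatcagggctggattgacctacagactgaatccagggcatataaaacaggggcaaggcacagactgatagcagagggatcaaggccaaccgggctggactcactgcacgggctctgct
Igfbp1: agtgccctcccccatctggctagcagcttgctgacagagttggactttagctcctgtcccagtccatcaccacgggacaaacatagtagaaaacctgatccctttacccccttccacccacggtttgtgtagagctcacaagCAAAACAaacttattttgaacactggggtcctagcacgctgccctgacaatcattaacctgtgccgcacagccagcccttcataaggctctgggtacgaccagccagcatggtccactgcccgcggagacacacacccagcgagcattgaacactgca

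The Irs1 window (chr1:82291390-82291689, minus strand) held 2 matches to CAAAACA, beginning 111 and 32 bases before the start. The Irs2 window (chr8:11008880-11009179, minus strand) held 1, beginning 37 bases before the start. The RefSeq start of Irs2 lies 471 bp outside the gene's end in the deposited table. The window of G6pc (chr11:101367466-101367765, plus strand) held 1 match 174 bases before the start, and that of Igfbp1 (chr11:7197537-7197836, plus strand) 1 match 108 bases before it. In the other member windows there was 1 match to GTAAACA, in 1 of 2 windows of Akt1. Of all 32851 promoter windows of this length, 6.28% held CAAAACA and 3.65% held GTAAACA. A match describes the letters and does not show binding.

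The files carry a few properties of the libraries that touch these results. From the spacing of low FPKM values the totals were estimated at 15300000 to 16300000 fragments a library. At these estimates the 10 genes rested on 203 fragments (Irs1) to 3135 fragments (Insr) in a library, and the counting error at the fewest fragments was 1.85% for Insr and 7.02% for Irs1. Acsm3 was at 32.2 to 34.4 FPKM in the control livers and at 0.668 to 2.92 FPKM in the knockout livers. Over the 10996 tested genes the median log2 fold change was 0.13 in FPKM as deposited, so a gene at 0 lay below the middle of all genes, and 16.5% of tested genes passed (adjusted p under 0.05, limma), 13.9% higher and 2.61% lower. Median-ratio rescaling centres the libraries on their typical gene, after which 7.57% passed higher and 6.7% lower. Hepatocyte markers summed to 40449 to 48539 FPKM in the control livers and 30004 to 32981 FPKM in the knockout livers over 8 genes, and markers of leukocytes and macrophages to 70.8 to 121 FPKM and 149 to 286 FPKM over 9 genes. Of these lists, 1 of 8 hepatocyte genes rose and 2 fell, and 5 of 6 tested leukocyte genes rose. Alb made up most of the hepatocyte sum, at 30151.4 to 37368.8 FPKM in the control livers and 21103.5 to 24029.3 FPKM in the knockout livers. Alb and Ttr fell and Hnf4a rose, all named after their values were seen. Asgr1 and Apoa1 lay lower in all knockouts but did not pass, and Cps1, Tat and Serpina1c overlapped between the groups. Stellate and fibroblast markers summed to 36.2 to 43.0 FPKM and 76.6 to 104 FPKM over 7 genes, and endothelial markers to 47.5 to 54.9 FPKM and 61.7 to 79.1 FPKM over 6 genes, with 5 of 7 and 2 of 6 genes higher. Resident Kupffer cell markers overlapped between the groups in sum, and 3 of 6 fell. Of 5 biliary markers only Spp1 was tested, and it rose and made up most of their sum (Spp1 at 12.5 to 14.8 FPKM in the control livers and 32.1 to 64.0 FPKM in the knockout livers, the sum at 13.4 to 16.1 and 34.1 to 66.6 FPKM), while Krt19, Krt7 and Epcam overlapped between the groups. Sox9, the remaining biliary marker, also had a mean below 1 FPKM and was not tested. Adipocyte markers went from 1.61 to 1.89 FPKM to 6.81 to 14.1 FPKM with Adipoq, Plin1, Lep and Retn under 0.1 FPKM throughout. The adipocyte sums therefore rest on the other 2 genes, Fabp4 and Cfd, which both rose. In whole liver, fewer cells of a type and less RNA per cell cannot be told apart. The part of cell makeup in the results below was not tested.

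In control livers the order of levels per length was Akt2, Insr, Pik3r1, Akt1, Trib1, Foxo1, Foxo3, Pik3ca, Irs2 and Irs1, with means from 15.3 down to 1.92 FPKM. Only the steps from Akt2 to Insr, from Foxo3 to Pik3ca and from Irs2 to Irs1 separated neighbours whose ranges over the 3 mice did not overlap. In knockout livers the order was Akt2, Insr, Akt1, Pik3r1, Trib1, Foxo1, Foxo3, Pik3ca, Irs2 and Irs1, from 14.8 down to 2.12 FPKM. There only the step from Pik3ca to Irs2 separated the ranges of neighbours.

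**Figure D1:**
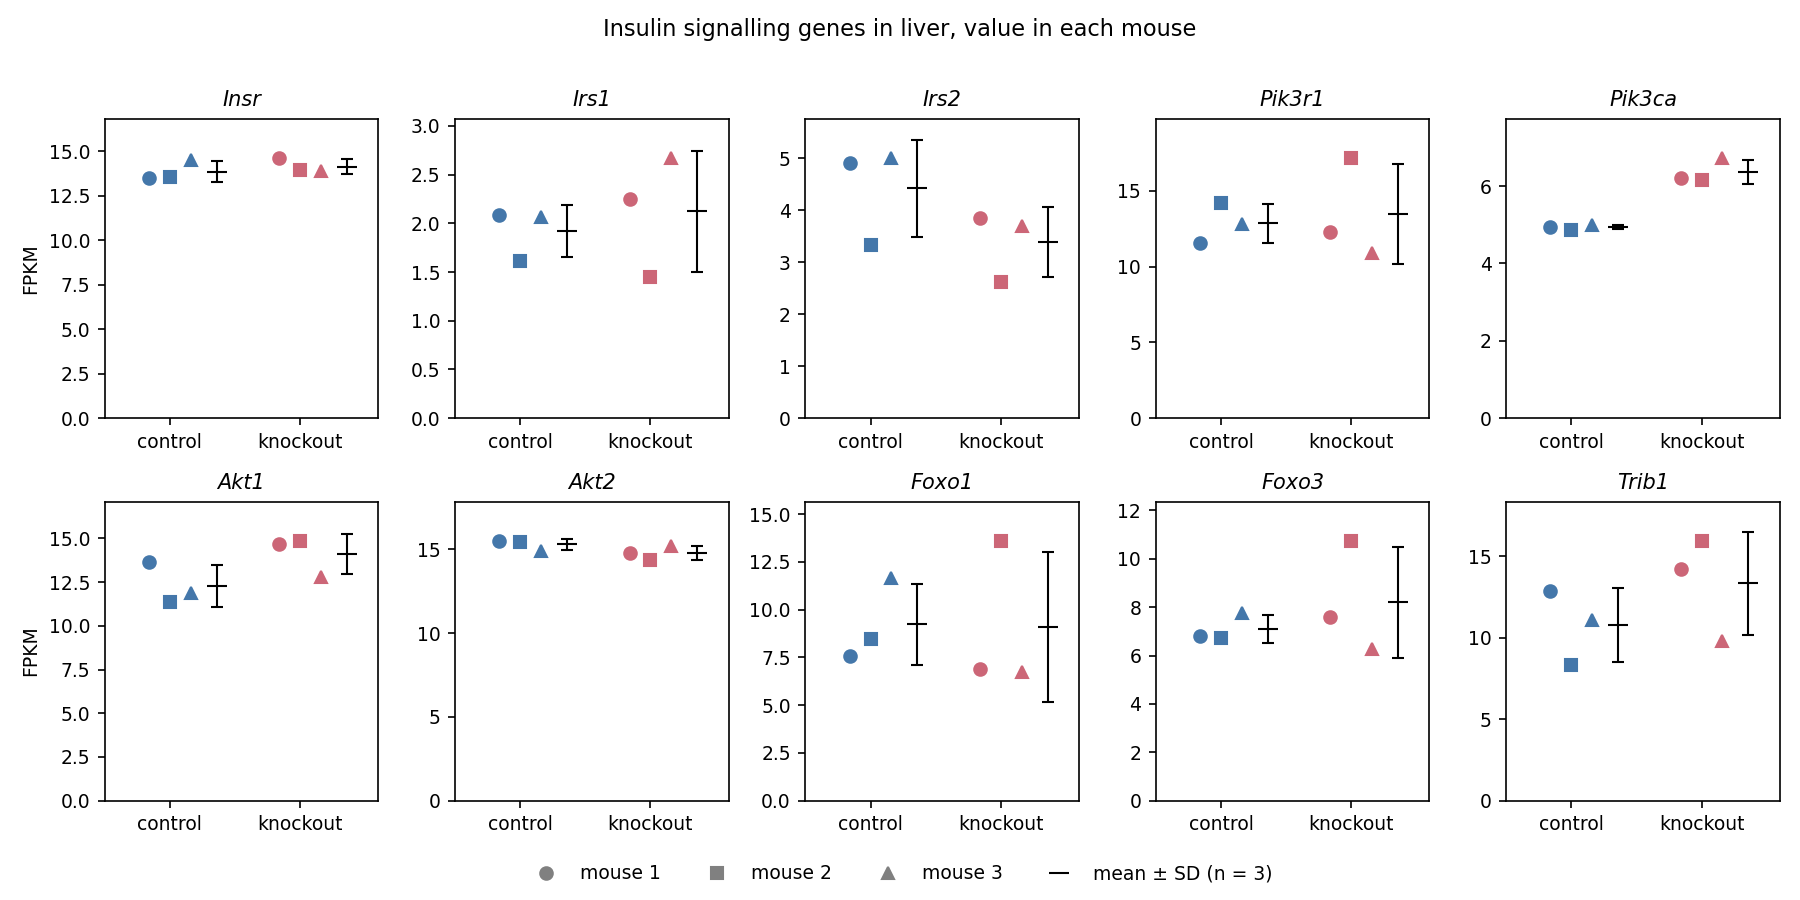
FPKM of each of the 10 insulin signalling genes (vertical axes, from 0) in the 3 control and 3 knockout livers, with the mean ± SD of each group in black. Symbols give the mouse number, which does not link a control to a knockout; the knockout values of Pik3ca (6.17 to 6.73) lie above its control values (4.88 to 4.99), and the groups of the other 9 genes overlap.

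Insr encodes the insulin receptor, and its transcript level hardly varied between the 6 livers. The gene (ENSMUSG00000005534) lies on the minus strand of chromosome 8 at 3122061 to 3279617 (GRCm38). Insr was at 13.5, 13.6 and 14.5 FPKM in control mice 1, 2 and 3 and at 14.6, 13.9 and 13.9 FPKM in knockout mice 1, 2 and 3. The groups overlapped, and control 3 and knockout 1 were the highest of their groups. The log2 fold change was 0.03 ± 0.07 (SE, adjusted p = 0.805, limma), with a 95% interval of -0.13 to 0.19, or 0.91-fold to 1.14-fold in FPKM + 1. After median-ratio rescaling it was -0.13, so its sign depended on the scaling. The tested genes whose log2 values followed Insr most closely over the 6 mice were Fam160a1 (Pearson r = 0.978), U2surp (r = 0.974) and Rnf214 (r = 0.972), given as a description only.

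Irs1 and Irs2 encode the main adaptors of the receptor in liver. Irs2 (ENSMUSG00000038894, minus strand of chromosome 8, 10984681 to 11008458) was at 4.92, 3.34 and 5.003 FPKM in control mice 1, 2 and 3 and at 3.86, 2.61 and 3.69 FPKM in knockout mice 1, 2 and 3. Control 2 lay below knockouts 1 and 3, so the groups overlapped. The log2 fold change of Irs2 was -0.30 ± 0.17 (SE, 95% interval -0.71 to 0.10, adjusted p = 0.249, limma). Rescaling moved Irs2 to -0.43 ± 0.17 (median-ratio, adjusted p = 0.134) or -0.49 ± 0.18 (quantile, adjusted p = 0.114, both limma). Irs2 passed in 1 of 15 alternatives, the replicate block, whose values are given in the closing sections. Irs1 (ENSMUSG00000055980, minus strand of chromosome 1, 82233101 to 82291416) was at 2.09, 1.62 and 2.07 FPKM in the control livers and at 2.25, 1.45 and 2.67 FPKM in the knockout livers. The knockouts held both the lowest and the highest Irs1 value, and the log2 fold change was 0.08 ± 0.16 (SE, 95% interval -0.31 to 0.47, adjusted p = 0.766, limma). Mouse 2 was the lowest of its group for both adaptors, in controls and in knockouts.

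The balance of the adaptors within a liver does not depend on how libraries are scaled against each other. The ratio of Irs2 to Irs1 FPKM was 2.35, 2.06 and 2.42 in controls 1, 2 and 3 and 1.72, 1.80 and 1.38 in knockouts 1, 2 and 3. Every knockout liver lay below every control liver. The mean log2 ratio went from 1.19 ± 0.12 to 0.70 ± 0.21 (SD, n = 3), a difference of -0.49 (two-sided exact permutation p = 0.1, the smallest that 3 against 3 allows, 0.3 adjusted over 4 ratios). Without any 1 mouse the difference ran from -0.56 to -0.37. The design therefore cannot bring this difference past a threshold of 0.05 by permutation.

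**Figure D2:**
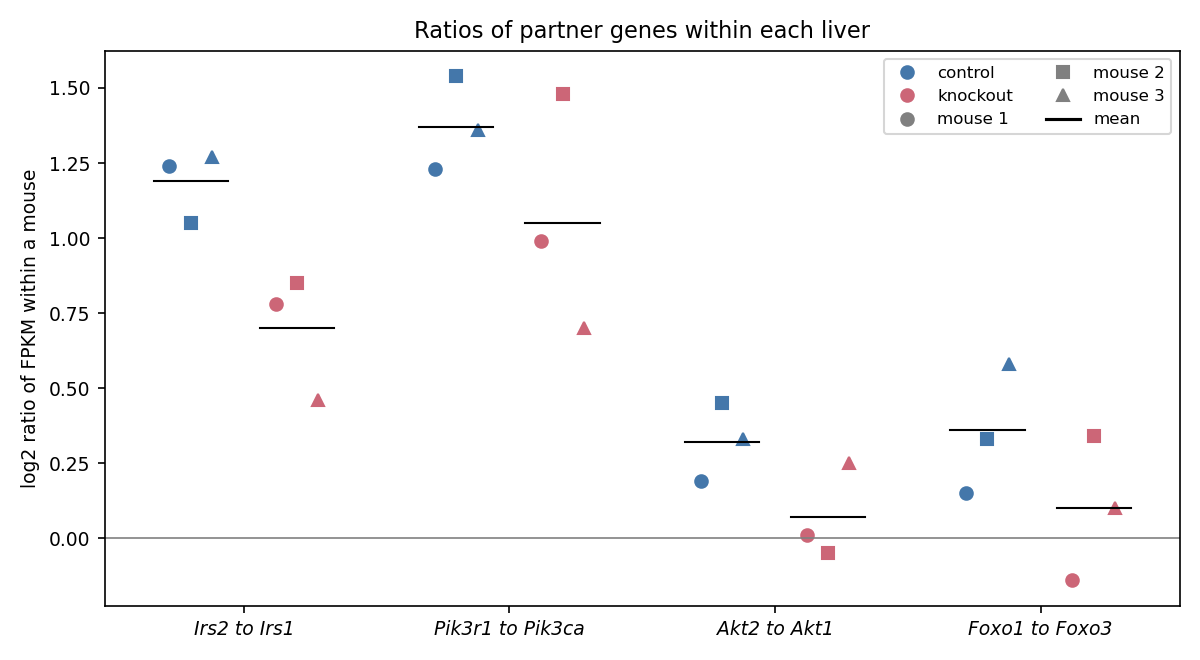
Log2 ratio of the FPKM of 2 partner genes within each liver (vertical axis) for 4 pairs of genes, controls in blue and knockouts in red, with group means as lines and mouse numbers as symbols. The Irs2 to Irs1 values do not overlap between groups (means 1.19 and 0.70), and those of the other 3 pairs do.

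Phosphatidylinositol 3-kinase joins a regulatory p85 subunit, encoded mainly by Pik3r1 in liver, to a catalytic subunit such as that of Pik3ca. Pik3ca (ENSMUSG00000027665, plus strand of chromosome 3, 32397671 to 32468486) was at 4.95, 4.88 and 4.99 FPKM in control mice 1, 2 and 3 and at 6.21, 6.17 and 6.73 FPKM in knockout mice 1, 2 and 3. All 3 knockouts lay above all 3 controls. The log2 fold change was 0.31 ± 0.07 (SE, 95% interval 0.15 to 0.47, adjusted p = 0.0317, limma), and 0.18 relative to the median of all tested genes. Pik3ca was therefore 1 of 10 genes called, against 16.5% of all tested genes, and 1 of 10 whose groups did not overlap, against 41.8% of all tested genes.

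The Pik3ca call depended on scaling and on the number of mice. It ended after median-ratio rescaling (0.17, adjusted p = 0.219), after quantile normalization (0.14, adjusted p = 0.325) and with no filter on low genes (0.31, adjusted p = 0.0627, all limma). It held without knockout 3 (adjusted p = 0.0449) and ended without control 1, 2 or 3 or knockout 1 or 2 (adjusted p from 0.0744 to 0.101, limma), with fold changes of 0.28 to 0.33 over these 6 fits. The predicted gene Gm37123 overlaps the Pik3ca span by 1171 bp on the same strand and was at 2.09, 1.78 and 0.870 FPKM in the control livers and 1.10, 1.0 and 1.11 FPKM in the knockout livers. The counting of fragments shared by the 2 genes is not stated in the sources used here.

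Pik3r1 (ENSMUSG00000041417, minus strand of chromosome 13, 101680563 to 101768217) was at 11.6, 14.2 and 12.8 FPKM in control mice 1, 2 and 3 and at 12.3, 17.2 and 10.9 FPKM in knockout mice 1, 2 and 3. Knockout 2 was the highest and knockout 3 the lowest of the 6 livers. Pik3r1 had a log2 fold change of 0.04 ± 0.16 (SE, 95% interval -0.35 to 0.43, adjusted p = 0.875, limma), and it was -0.11 after median-ratio rescaling. The log2 ratio of Pik3r1 to Pik3ca had means of 1.37 ± 0.16 in controls and 1.05 ± 0.39 in knockouts (SD, n = 3), with overlapping groups (exact permutation p = 0.3, 0.3 adjusted over 4 ratios).

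Akt1 and Akt2 encode the AKT kinases of hepatocytes, and AKT2 is the form best known for insulin action on metabolism. Akt2 (ENSMUSG00000004056, plus strand of chromosome 7, 27591552 to 27640826) was at 15.5, 15.4 and 14.9 FPKM in control mice 1, 2 and 3 and at 14.8, 14.4 and 15.2 FPKM in knockout mice 1, 2 and 3. The values spread over little more than 1 FPKM and overlapped, with a log2 fold change of -0.05 ± 0.06 (SE, 95% interval -0.20 to 0.10, adjusted p = 0.635, limma). Rescaling moved Akt2 to -0.20 ± 0.08 (median-ratio, adjusted p = 0.123) or -0.17 ± 0.07 (quantile, adjusted p = 0.177, both limma). Akt1 (ENSMUSG00000001729, minus strand of chromosome 12, 112653821 to 112674884) was at 13.6, 11.3 and 11.9 FPKM in the control livers and at 14.7, 14.9 and 12.8 FPKM in the knockout livers. Control 1 exceeded knockout 3, so the Akt1 groups overlapped. The log2 fold change of Akt1 was 0.19 ± 0.10 (SE, 95% interval -0.04 to 0.42, adjusted p = 0.216, limma). The log2 ratio of Akt2 to Akt1 went from 0.32 ± 0.13 to 0.07 ± 0.16 (SD, n = 3, exact permutation p = 0.2, 0.3 adjusted over 4 ratios), with Akt1 above Akt2 in knockout 2 alone.

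Foxo1 and Foxo3 encode the forkhead factors that AKT holds out of the nucleus. Foxo1 (ENSMUSG00000044167, plus strand of chromosome 3, 52268336 to 52353221) was at 7.57, 8.48 and 11.6 FPKM in control mice 1, 2 and 3 and at 6.90, 13.6 and 6.74 FPKM in knockout mice 1, 2 and 3. Knockout 2 was about double the other knockouts, and its value lay above all controls while theirs lay below. The log2 fold change of Foxo1 was -0.07 ± 0.27 (SE, 95% interval -0.71 to 0.58, adjusted p = 0.884, limma), an interval that spans 0.61-fold to 1.49-fold in FPKM + 1. Foxo3 (ENSMUSG00000048756, minus strand of chromosome 10, 42181841 to 42276755) was at 6.81, 6.73 and 7.76 FPKM in the control livers and at 7.58, 10.8 and 6.27 FPKM in the knockout livers. Its order among the knockouts was again 2, 1, 3, as for Foxo1, Pik3r1, Akt1 and Trib1. Foxo3 had a log2 fold change of 0.16 ± 0.17 (SE, 95% interval -0.26 to 0.57, adjusted p = 0.556, limma). Without knockout 2, Foxo1 stood at -0.37 and Foxo3 at -0.03. The log2 ratio of Foxo1 to Foxo3 had means of 0.36 ± 0.22 and 0.10 ± 0.24 (SD, n = 3, exact permutation p = 0.3, 0.3 adjusted over 4 ratios), with overlapping groups.

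Trib1 encodes a pseudokinase that presents the factor C/EBP-alpha to the ubiquitin ligase COP1 and is known for its effect on hepatic lipid synthesis. Trib1 (ENSMUSG00000032501, plus strand of chromosome 15, 59648350 to 59657099) was at 12.9, 8.36 and 11.1 FPKM in control mice 1, 2 and 3 and at 14.2, 15.97 and 9.83 FPKM in knockout mice 1, 2 and 3. Knockouts 1 and 2 lay above all controls and knockout 3 lay among them. Trib1 had a log2 fold change of 0.28 ± 0.21 (SE, 95% interval -0.21 to 0.77, adjusted p = 0.373, limma).

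The 10 genes differed widely in how much they varied between mice of a genotype. The coefficient of variation was 4.11% in controls and 2.96% in knockouts for Insr, and 2.23% and 2.75% for Akt2. It was 23.1% in controls and 43.3% in knockouts for Foxo1, and 8.05% and 28.1% for Foxo3. For Foxo1, Irs2 and Trib1 it was at least 19.9% in both groups. Knockout 2 was the highest liver for 5 genes (Akt1, Pik3r1, Foxo1, Foxo3 and Trib1) and the lowest for 3 (Irs1, Irs2 and Akt2), so it was at an extreme for 8 of 10. Over all tested genes knockout 2 was at an extreme for 35.6%.

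**Figure D3:**
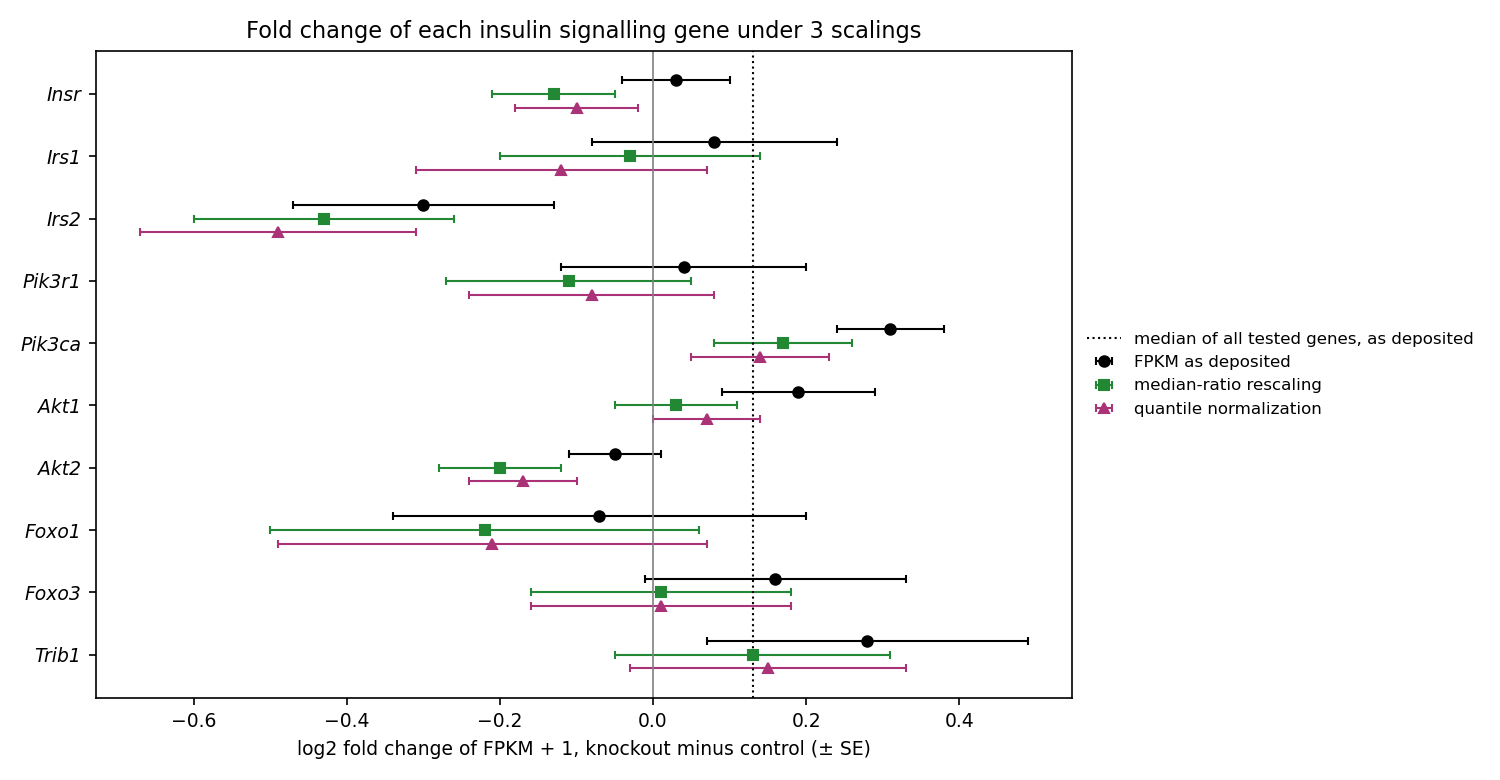
Log2 fold change of FPKM + 1, knockout minus control, with its SE (horizontal axis) for the 10 genes under 3 scalings, and the median of all tested genes in deposited FPKM (0.13) as a dotted line. Rescaling moves every gene to the left, turns the sign of Insr, Irs1 and Pik3r1 and brings Pik3ca from 0.31 to 0.17 or 0.14.

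A wider set of 117 genes was sorted by role into 9 lists, and 101 of them were tested. Of these, 14 rose and 2 fell (15.8%), against 16.5% of all tested genes, and the median log2 fold change was 0.20 against 0.13. After median-ratio rescaling 9 rose and 6 fell, against 7.57% higher and 6.7% lower over all tested genes. With no filter on low genes 3 of the 16 calls were left, namely Ywhaz, Scd1 and Fasn, so every other call named below ended under that setting. The 16 listed genes below 1 FPKM included the insulin-like growth factor receptor gene Igf1r, at a mean of 0.359 FPKM and named after its values were seen.

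Counts of calls in the lists below, in FPKM as deposited, stand against 13.9% higher and 2.61% lower over all tested genes. Those after median-ratio rescaling stand against 7.57% higher and 6.7% lower. Among receptors and adaptors 1 of 8 rose (12.5%), whereas median-ratio rescaling gave 0 higher calls and 1 lower. The gene that rose was Sos1, an exchange factor that couples receptors to RAS, which went from 5.62, 5.81 and 6.09 FPKM to 7.16, 7.08 and 7.26 FPKM (0.26 ± 0.07, adjusted p = 0.0453, limma). The Sos1 call ended after median-ratio rescaling (0.11, adjusted p = 0.392) and without any 1 mouse (adjusted p from 0.0684 to 0.129). Of the other PI3-kinase subunits 0 of 4 passed, with 3 at an unadjusted p under 0.05 (limma), against 3887 of 10996 tested genes. Pik3cd, the catalytic subunit typical of leukocytes, was at 1.05, 1.01 and 0.417 FPKM in the control livers and 2.26, 2.36 and 1.36 FPKM in the knockout livers (0.72 ± 0.20, adjusted p = 0.0536, limma). It passed in 4 of 15 alternatives, among them array weights (adjusted p = 0.0189), voom on estimated fragments (adjusted p = 0.0451) and the fit without knockout 3 (adjusted p = 0.028, all limma). Pik3cb, the other catalytic subunit of hepatocytes, was at 0.41 ± 0.14 (adjusted p = 0.0927, limma). The leukocyte marker sum given above moved the same way as Pik3cd, and 5 of the 6 tested leukocyte markers rose; the T-cell gene Cd3e, named after its values were seen, had a mean of 0.130 FPKM. Its part in the Pik3cd values was not tested.

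Among genes of AKT activation and mTOR 1 of 13 rose (7.69%). Among AKT substrates and downstream kinases 2 of 14 rose (14.3%), and 1 was higher and 2 lower after median-ratio rescaling. Gsk3b, the glycogen synthase kinase that AKT inhibits, went from 5.08, 4.27 and 4.94 FPKM to 6.69, 7.74 and 6.64 FPKM (0.48 ± 0.09, adjusted p = 0.0239, limma). Tbc1d1, a RAB GTPase-activating protein and AKT substrate, was at 0.57 ± 0.12 (adjusted p = 0.0275, limma). Both lay wholly above their controls. After median-ratio rescaling Gsk3b (adjusted p = 0.0549) no longer passed, and Tbc1d1 did. Each of these genes lost its call without control 1, 2 or 3 or knockout 1 or 2 (adjusted p from 0.0512 to 0.0914, limma).

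Among negative regulators 1 of 15 rose (6.67%). Inpp5d encodes SHIP1, a lipid phosphatase of blood cells, and went from 0.612, 0.939 and 0.820 FPKM to 2.54, 2.60 and 1.35 FPKM (0.80 ± 0.19, adjusted p = 0.0351, limma). Its knockout values had the order of the leukocyte marker sum, with knockout 3 lowest in both. Its control values did not, with control 1 lowest for Inpp5d and control 3 lowest for the sum. The part of leukocyte content in the Inpp5d values was not tested. The call ended with quantile normalization (adjusted p = 0.0515) and without control 1, 2 or 3 or knockout 1 or 2 (adjusted p from 0.0861 to 0.112).

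The list of FOXO proteins and regulators had 5 of 12 tested genes higher and 0 lower (41.7%, against 13.9% higher over all genes). It was drawn up with earlier results of these data known, so this share is a description only. No FOXO gene was among the 5 calls. The 14-3-3 proteins, which hold phosphorylated FOXO in the cytosol and bind many other partners, gave 3 of these calls. Ywhaz went from 24.5, 23.4 and 22.9 FPKM in the control livers to 38.3, 35.5 and 35.1 FPKM in the knockout livers (0.60 ± 0.07, adjusted p = 0.00777, limma), and it passed under all 16 alternatives run. Ywhah went from 11.4, 9.26 and 8.17 FPKM to 18.4, 18.7 and 13.7 FPKM (0.76 ± 0.16, adjusted p = 0.0275, limma). Ywhag rose by 0.38 ± 0.09 (adjusted p = 0.0323, limma). Ywhae, the 14-3-3 gene of highest level here and named after its values were seen, was at 0.06 ± 0.07 (adjusted p = 0.584, limma). The ubiquitin ligase gene Mdm2 rose by 0.73 ± 0.13 (adjusted p = 0.0194) and the coactivator gene Crebbp by 0.29 ± 0.08 (adjusted p = 0.049), the latter named after its values were seen. After median-ratio rescaling 3 of the 12 rose, namely Ywhaz, Ywhah and Mdm2, and Ywhag no longer passed (adjusted p = 0.171). Without control 2 or 3 or knockout 1 or 2, Ywhah, Ywhag and Mdm2 did not pass (adjusted p from 0.0534 to 0.0967), and Ywhag did not pass without control 1 either (adjusted p = 0.0742). The 14-3-3 genes are paralogs, and whether fragments were shared between them was not tested.

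Among FOXO targets 1 of 20 tested genes rose and 2 fell (15.0%), with a median of 0.03. G6pc, the catalytic subunit of glucose-6-phosphatase, was at 170.1, 188.0 and 245 FPKM in control mice 1, 2 and 3 and at 119.7, 108 and 89.8 FPKM in knockout mice 1, 2 and 3. Every knockout lay below every control (-0.91 ± 0.16, adjusted p = 0.020, limma). Pck1, the cytosolic phosphoenolpyruvate carboxykinase, was at 1030.0, 962 and 1362 FPKM in the control livers and 565, 837 and 555 FPKM in the knockout livers, again without overlap (-0.79 ± 0.20, adjusted p = 0.0435, limma). Sesn3, a stress-induced regulator of AKT and mTOR signalling, rose from 1.93, 1.87 and 1.78 FPKM to 3.94, 3.63 and 2.86 FPKM (0.64 ± 0.11, adjusted p = 0.0181, limma).

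Igfbp1, a classic insulin-repressed gene whose promoter is printed above, was named after its values were seen. It was at 57.9, 42.0 and 77.3 FPKM in control mice 1, 2 and 3 and at 82.3, 102 and 25.6 FPKM in knockout mice 1, 2 and 3. The knockouts held its lowest and its highest value, and its log2 fold change was 0.07 ± 0.51 (adjusted p = 0.941, limma). Its order among the knockouts, 2, 1, 3, was that of Foxo1 and Foxo3 but also of Akt1, Pik3r1 and Trib1, whereas G6pc had the order 1, 2, 3. Among the controls its order, 3, 1, 2, was that of Foxo3 and not that of Foxo1. Whether these orders are linked was not tested. Pck1 passed in 7 of 16 alternatives. It did not pass, for example, without control 1, 2 or 3 or knockout 1 or 3 (adjusted p from 0.0821 to 0.122), with quantile normalization (adjusted p = 0.087) or with array weights (adjusted p = 0.0681). G6pc did not pass without control 2 or 3 or knockout 2 (adjusted p from 0.0551 to 0.0665), and Sesn3 did not pass without control 1, 2 or 3 or knockout 1 or 2 (adjusted p from 0.0503 to 0.0708).

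Of genes that insulin is known to induce in hepatocytes, 3 of 8 tested rose and 0 fell (37.5%, against 13.9% higher over all genes), with a median of 0.67. After median-ratio rescaling 3 were higher and 1 lower. They were the desaturase gene Scd1 (3.11 ± 0.14, adjusted p = 0.000796), the fatty acid synthase gene Fasn (1.42 ± 0.14, adjusted p = 0.00546) and the acetyl-CoA carboxylase gene Acaca (0.59 ± 0.10, adjusted p = 0.0194, all limma). Scd1 and Fasn passed under all 16 alternatives run. Acaca passed after median-ratio rescaling and did not pass without control 1, 2 or 3 or knockout 1 or 2 (adjusted p from 0.0547 to 0.0692). The list was not uniform, and it was also drawn up with earlier results of these data known. Acly, ATP citrate lyase, lay lower in all knockouts at 16.5, 18.3 and 17.0 FPKM than in controls at 19.5, 23.4 and 23.4 FPKM (-0.34 ± 0.09, adjusted p = 0.0532, limma). After median-ratio rescaling Acly was the 1 lower call of this list. Acly was named after its values were seen.

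**Figure D4:**
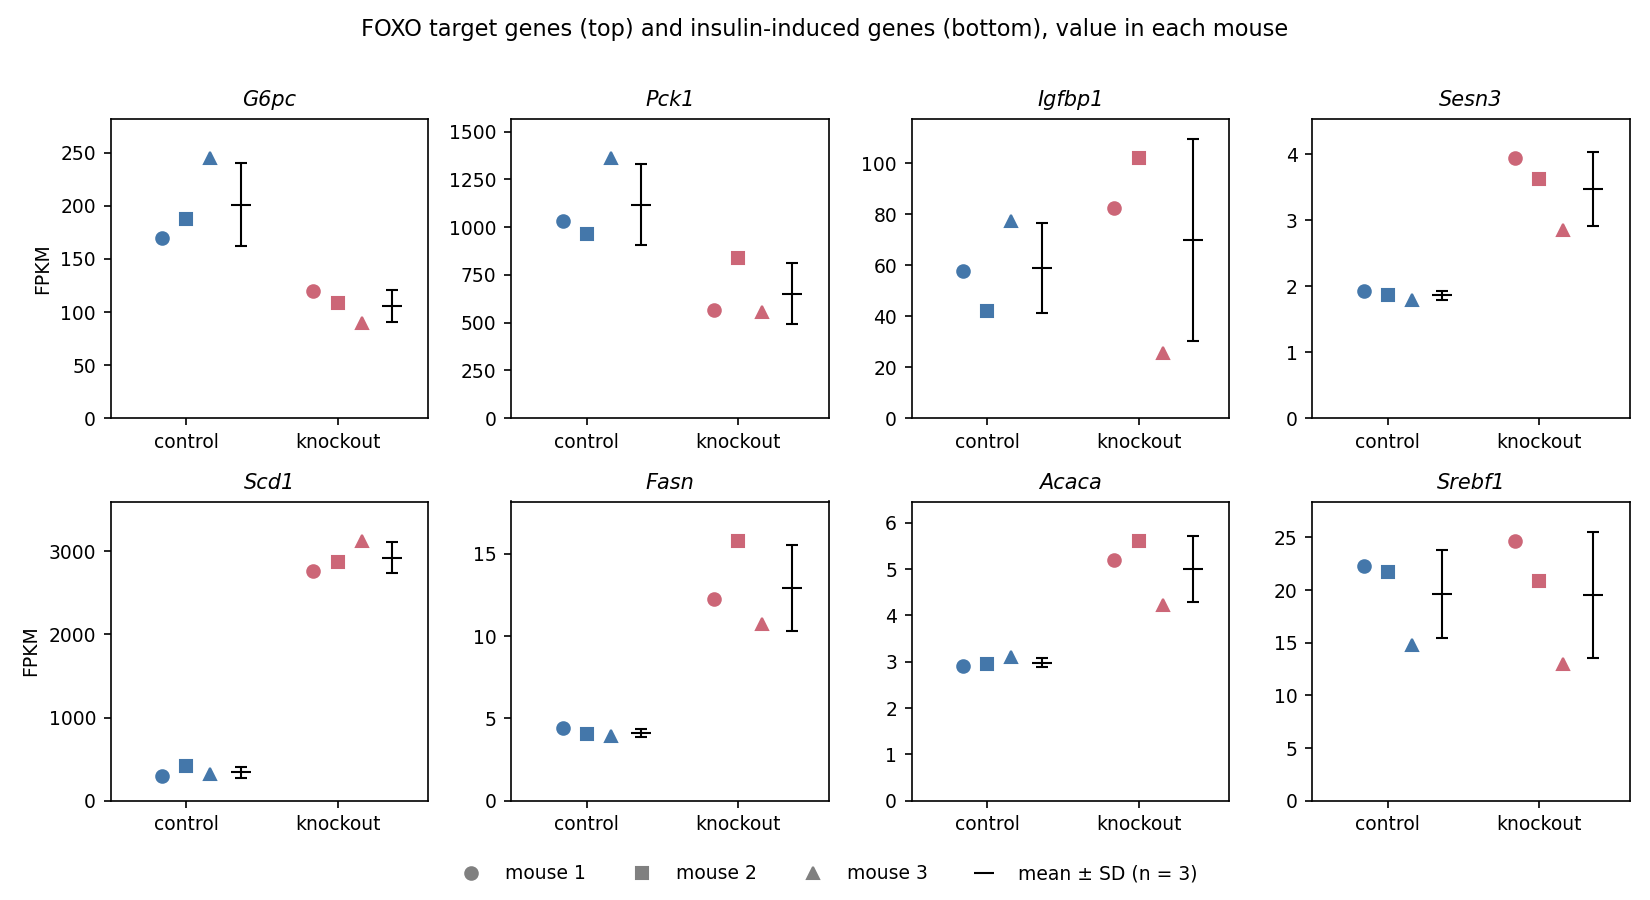
FPKM (vertical axes, from 0) of 4 FOXO target genes and 4 insulin-induced genes in the 3 control and 3 knockout livers, with the mean ± SD of each group in black and mouse numbers as symbols. G6pc and Pck1 are lower in all 3 knockouts, Sesn3, Scd1, Fasn and Acaca are higher in all 3, and Igfbp1 and Srebf1, chosen after their values were seen, overlap.

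Partners and substrates of TRIB1 gave 0 calls among 7 tested genes, with 2 at an unadjusted p under 0.05 (limma), a smaller share than the 3887 of 10996 over all tested genes. Those were Ddb1, an adaptor of cullin ubiquitin ligases (0.20 ± 0.08, adjusted p = 0.122), and the transcription factor gene Cebpb (-0.47 ± 0.19, adjusted p = 0.138). With array weights Ddb1 passed (0.25, adjusted p = 0.0419, limma). The TRIB1 substrate gene Cebpa, named after its values were seen, was at 155, 107 and 90.3 FPKM in the control livers and 116, 75.4 and 66.4 FPKM in the knockout livers, with overlapping groups (-0.45 ± 0.26, adjusted p = 0.262, limma).

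**Figure D5:**
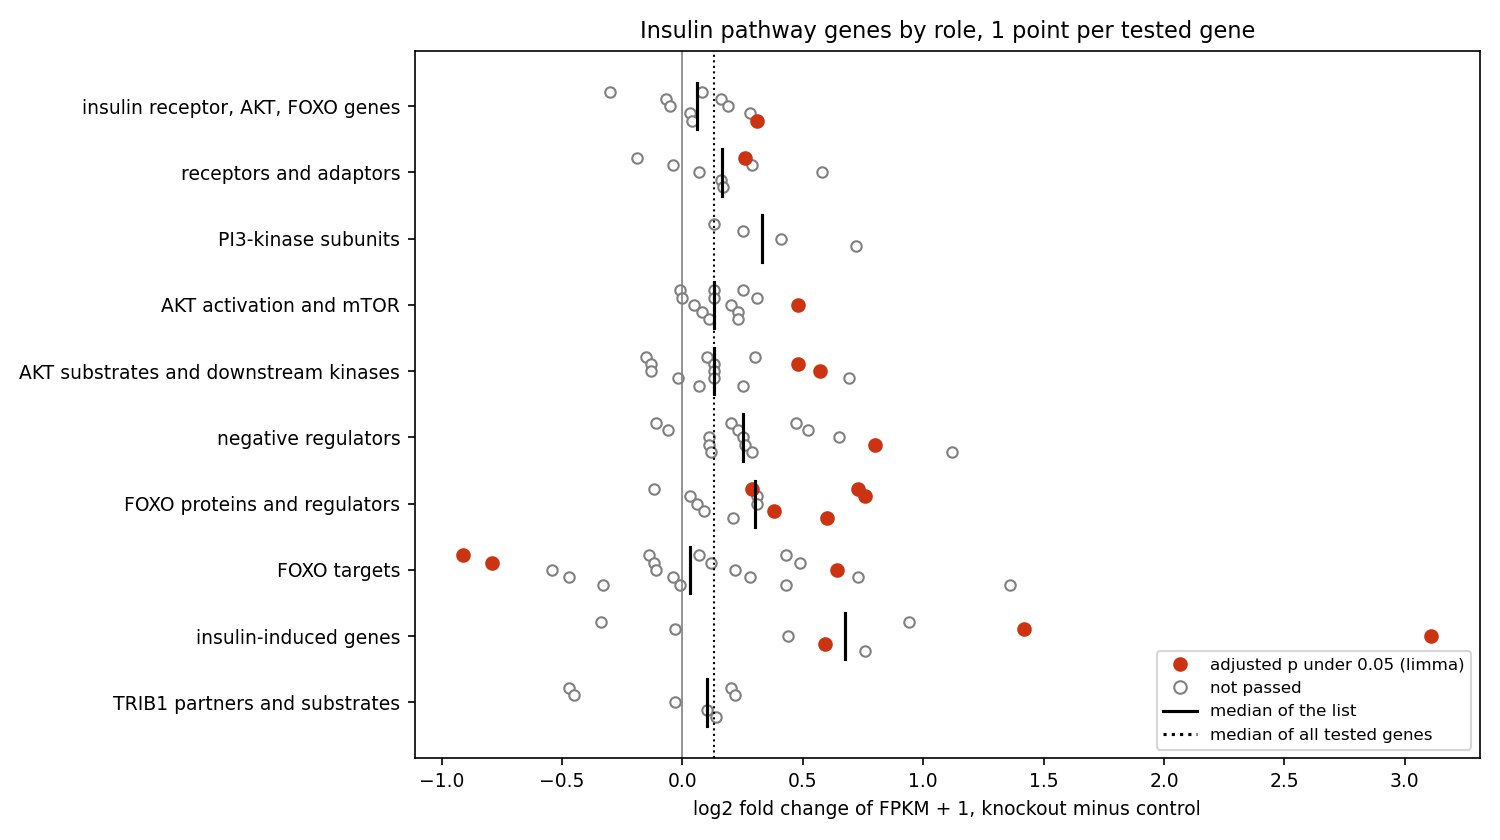
Log2 fold change of FPKM + 1, knockout minus control (horizontal axis), of each tested gene of the 10 lists of insulin pathway genes, with list medians as black lines and the median of all tested genes as a dotted line. Filled points passed an adjusted p of 0.05 (limma): 1 among the 10 insulin receptor, AKT and FOXO genes, 5 among FOXO proteins and regulators, and in both directions only among FOXO targets.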

How the data were processed

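FPKM of 6 liver libraries were deposited by the authors in 1 table; the submitters' processing notes list StringTie 1.3.0, HISAT2 2.0.4 and Bowtie2 2.2.6 with GRCm38 as the build, and give no roles. Strand and the counting of shared fragments are not stated in the sources used here. Columns were matched to samples by title. Of 28450 identifiers, 28411 were found in GENCODE M21 (GRCm38), whose exon lengths were used only for the fragment estimates; of estimates below 20 fragments, 98.0% to 98.1% per library fell no more than 0.1 from a whole number.

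Values were transformed to log2(FPKM + 1), which understates the changes of low genes. Knockout was compared with control by limma 3.58.1 in R 4.3.3, using the intensity trend in eBayes, over the 10996 genes whose mean reached 1 FPKM. P-values were adjusted by Benjamini-Hochberg over all of them, with a threshold of 0.05. Ratios within a liver were compared by two-sided exact permutation (scipy 1.17.1). Animals are separate mice by the design, and p-values measure the spread between 3 per group. The procedure was tested on simulated data. Other settings tried were a pseudocount of 0.1 or 5 FPKM, a mean of 5 FPKM as the filter or none, quantile normalization or median-ratio rescaling, no trend, array weights, a replicate block, leaving out each mouse and, added after the data were seen, voom on estimated fragments.

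The members and lists were chosen with earlier results of these data known. Named genes were the members, Acsm3, in each list up to 4 called genes of largest change or, in a list with no call, the 2 with the lowest p, and the 3 genes most correlated with Insr; others are marked in the text. No set test was made. Some listed genes are not reported here by name. Promoter sequences are from RefSeq (GRCm38.p6).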

Additional observations from a re-analysis of the deposited data

How the results depend on the processing

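Of the 10 insulin signalling genes, 1 was called, and 0 were called with no filter, after median-ratio rescaling or with quantile normalization; leaving out each mouse gave 0 to 1. Of the wider set 16 were called, 3 with no filter and 34 with array weights, and 3 to 22 without 1 mouse. Over all genes 1819 were called, 650 with no filter, 1108 with a filter at 5 FPKM and 3279 with array weights, and 287 to 2250 without 1 mouse. With no filter more genes were tested, and without 1 mouse fewer samples entered. The signs of some members that did not pass moved. After median-ratio rescaling Insr was at -0.13, Irs1 at -0.03 and Pik3r1 at -0.11, with quantile normalization these were at -0.10, -0.12 and -0.08, and with array weights Irs1 was at -0.01 and Foxo1 at 0.20. Without 1 mouse, Irs1 ranged from -0.05 to 0.24, Pik3r1 from -0.13 to 0.17, Foxo1 from -0.37 to 0.10 and Foxo3 from -0.03 to 0.31. The cause was not tested. The 4 ratios kept their sign in each of 7 alternatives. With the replicate block, 2 of the 10 genes were called, Pik3ca and Irs2 (-0.30, adjusted p = 0.0496, limma). Of the named wider genes the block added Pik3cd (0.72, adjusted p = 0.0153) and ended Pck1 (-0.79, adjusted p = 0.0619) and Sos1 (0.26, adjusted p = 0.061, all limma). Over all genes it gave 2018 calls. Same-numbered mice had correlations of deviations of 0.111, 0.092 and 0.187, and every mouse correlated best with its own number, a hint from the data and not from the design, which does not pair them. FPKM of Irs1 rest on the fewest fragments, 203 to 395.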

Other observations

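Of the 101 tested genes of the wider lists, 49 had groups that did not overlap, against 41.8% of all tested genes, and 16 passed. A pair of those that did not pass, named after their values were seen, varied widely among the knockouts. Trib3, a pseudokinase that binds AKT, was at 4.32, 4.43 and 4.52 FPKM in the control livers and at 19.97, 6.15 and 9.98 FPKM in knockouts 1, 2 and 3 (log2 fold change 1.12 ± 0.35, adjusted p = 0.0712, limma). Pdk4, a kinase that inactivates pyruvate dehydrogenase and a FOXO target, was at 6.99, 4.55 and 4.59 FPKM in the control livers and at 7.002, 16.6 and 28.7 FPKM in knockouts 1, 2 and 3 (1.36 ± 0.45, adjusted p = 0.0796, limma), so that its groups barely separated. The knockout of highest Trib3 was the one of lowest Pdk4.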
